A study of Homo sapiens with 12 samples.

Results

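The 8 genes described here encode secreted cytokines that act through gp130 or belong to other interleukin and growth factor families: IL6, IL11, LIF, CLCF1, IL32, IL33, IL15 and CSF1. They were taken by gene symbol from the deposited table, which lists 60623 genes, and each symbol matched 1 row. All 8 were among the 16848 genes tested, which reached 1 TPM, a level scaled for transcript length and library total, in at least 3 libraries. IL33 reached that level only in the PF9363 libraries, so its difference there was partly set by the filter; without a filter its difference between PF9363 and OSM was also called (log2 change 1.59, adjusted p = 0.000165).

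The study measured poly(A) RNA in HMEC-1, a human microvascular endothelial line from skin that was made immortal. The 4 groups, each of 3 libraries collected at 48 h, were untreated control cells (CT), cells given recombinant oncostatin M (OSM), cells given OSM with PF9363 at 30 ug/mL (PF9363), and cells given OSM with CBP300 at 10 ug/mL (CBP300). By the labels, PF9363 inhibits KAT6A/B and CBP300 inhibits EP300, enzymes that acetylate histones. The OSM dose is 10 ng/mL in the protocol text and 10 ug/mL in the sample labels, and the files do not settle which was used. Both inhibitor groups also carry OSM, no group had an inhibitor alone, and the labels name no vehicle for the controls. The labels do not say whether the libraries came from separate cultures, so p-values measure the spread between these libraries, which may be technical.

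Cytokines of the gp130 family share the signal-transducing chain gp130, encoded by IL6ST, which activates JAK kinases and the transcription factor STAT3. IL6 binds IL6R and IL11 binds IL11RA before they engage gp130, LIF pairs gp130 with LIFR, and OSM, the agent given here, pairs gp130 with OSMR or LIFR. CLCF1 signals through CNTFR, gp130 and LIFR. Of the others, IL33 is a nuclear alarmin that binds IL1RL1 with IL1RAP, IL15 is presented to lymphocytes by IL15RA, CSF1 drives the monocyte and macrophage lineage through CSF1R, and IL32 is a proinflammatory cytokine that rodents lack.

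Promoter sequences are shown for IL6, IL32 and IL33, members whose levels differed strongly between groups, to give the DNA beside the values. They run from 250 bases before to 50 bases after an annotated start, from RefSeq on GRCh38.p14, which held 6 records for 4 of the 8 members. Capitals mark matches, on either strand, to TTGCNNAA (C/EBP), TGACG (the core of a CRE), the NF-kB letters GGG and CC with 5 bases of any kind between them or TTCNNNGAA (STAT).
IL6 chr7:22726950-22727249 (+): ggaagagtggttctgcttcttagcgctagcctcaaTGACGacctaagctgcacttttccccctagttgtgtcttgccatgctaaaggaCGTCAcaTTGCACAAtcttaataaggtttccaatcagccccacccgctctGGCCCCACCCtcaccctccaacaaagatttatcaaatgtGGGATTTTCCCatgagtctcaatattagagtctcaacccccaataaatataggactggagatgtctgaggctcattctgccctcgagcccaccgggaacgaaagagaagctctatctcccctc
IL32 chr16:3065153-3065452 (+): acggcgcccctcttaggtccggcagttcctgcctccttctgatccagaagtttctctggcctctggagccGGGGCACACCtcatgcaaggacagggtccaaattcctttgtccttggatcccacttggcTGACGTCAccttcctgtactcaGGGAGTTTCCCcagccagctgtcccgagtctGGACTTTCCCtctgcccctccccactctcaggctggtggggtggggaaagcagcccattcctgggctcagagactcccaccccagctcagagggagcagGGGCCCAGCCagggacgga
IL33 chr9:6215557-6215856 (+): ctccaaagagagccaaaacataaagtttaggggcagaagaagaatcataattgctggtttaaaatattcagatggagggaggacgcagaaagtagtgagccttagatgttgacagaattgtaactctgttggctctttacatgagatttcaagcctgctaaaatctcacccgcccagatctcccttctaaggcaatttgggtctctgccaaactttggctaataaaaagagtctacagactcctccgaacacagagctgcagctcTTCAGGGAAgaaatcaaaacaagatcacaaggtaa

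The IL6 window held 1 C/EBP match, 2 CRE core matches and 3 NF-kB matches, of which 2 overlap each other in the capital run before the start. The IL32 window held 5 NF-kB matches, some overlapping, and 2 CRE core matches that are the 2 strands of a single palindrome. The IL33 window held 1 STAT match. IL32 and IL33 each have another record, with a different start, that is not printed. That of IL32 (chr16:3065534-3065833) held 1 NF-kB match and no CRE core. That of IL33 (chr9:6214899-6215198) held no match, so its STAT match depends on the start chosen. Of all 35116 promoter windows of this length, 10.5% held the C/EBP letters, 58.7% the NF-kB letters, 24.6% the CRE core and 7.66% the STAT letters. A match describes letters, not binding.

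The IL6 values of the PF9363 libraries need to be read with care, because they are not whole reads. In this table a gene's TPM in a library is a whole number of reads times a unit set by the gene and the library, and this held in all 12 libraries for all but 5 of 26254 genes checked, within 0.002 reads. A value of 0 meets this by construction. Genes above 0 in few libraries could hardly fail, as many candidate units were tried. The 5 exceptions were IL6, ICAM1, HIF1A, VEGFA and SNAI1. They broke in the PF9363 columns, in 14 of their 15 values there. IL6 stood at 2.51, 2.97 and 1.64 TPM in these libraries, which correspond to 25.3, 30.13 and 17.86 reads.

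For each of the 3 IL6 values, exactly 1 whole-number offset among all those up to 1000 TPM in either direction gave whole reads, within 1e-06 reads. These offsets were 21, 20 and 18 TPM, and they brought IL6 to 23.5, 23.0 and 19.6 TPM, or 237, 233 and 214 reads. The offsets of the 5 genes, found in the same way, summed to 397, 430 and 178 TPM in PF9363 replicates 1, 2 and 3. These 3 columns fell short of 1000000 TPM by exactly 397, 430 and 178 TPM, while the other 9 columns summed to 1000000. The sources used here do not say how these values came about.

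**Figure D1:**
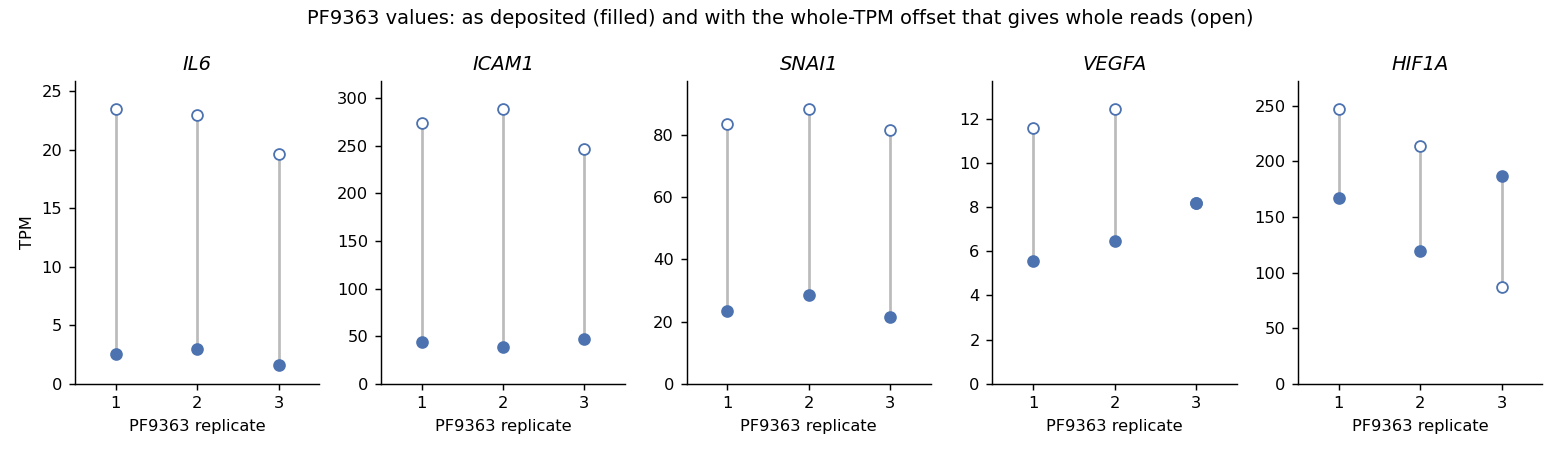
PF9363 values in TPM of the 5 genes whose values are not whole reads, by replicate, as deposited (filled) and with the whole-number TPM offset that gives whole reads (open). IL6 lies between 1.64 and 2.97 TPM as deposited and between 19.6 and 23.5 TPM with the offsets, and VEGFA replicate 3 has no offset.

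With the offsets the mean IL6 level in PF9363 was 22.0 ± 2.1 TPM (SD, n = 3), 2.12 times the OSM mean, whereas as deposited it was 2.37 ± 0.676 TPM and 0.228 times the OSM mean. The direction of IL6 between PF9363 and OSM therefore depends on which values are used, and none is given here. In the main fit, counts of members in comparisons with PF9363 are printed with the part IL6 has in them. Under other settings they hold IL6 as deposited. Only the fit with the offsets and limma-voom use the offset values. The other 7 members were whole reads in all 12 libraries.

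Read depth, recovered from the same units, ran from about 13420000 to 73290000 reads per library. Behind single values stood 112 to 658 reads for CSF1, 53 to 321 for CLCF1, 12 to 233 for IL32, 30 to 233 for IL15, 11 to 91 for LIF, 17 to 79 for IL11 and 0 to 55 for IL33. IL6 had 21 to 138 reads in the 9 libraries outside PF9363. CT replicate 1 stood apart from the other CT libraries, with mean absolute log2 differences of 0.58 and 0.48 against 0.22 between the other two, and PF9363 replicate 3 stood apart from its group at 0.46 and 0.39 against 0.25. Of 10 endothelial markers, 10 averaged at least 1 TPM in CT and OSM, 9 with PF9363 and 7 with CBP300. PECAM1 and CDH5 were at or above 43.4 TPM in every library, while VWF, CLDN5 and EMCN ran down to 0.733, 0.562 and 0.441 TPM. Of 9 leukocyte markers only CD14 averaged 1 TPM in any group, and PTPRC, which defines leukocytes, stayed at or under 0.0778 TPM. CD14, a receptor for bacterial products, ran from 2.96 to 59.6 TPM, and the 9 markers summed to 4.48 to 7.08 TPM in CT, 14.1 to 17.1 TPM with OSM, 46.1 to 61.6 TPM with PF9363 and 16.0 to 17.9 TPM with CBP300. In bulk RNA, fewer cells expressing a gene and less RNA per cell cannot be told apart.

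**Figure D2:**
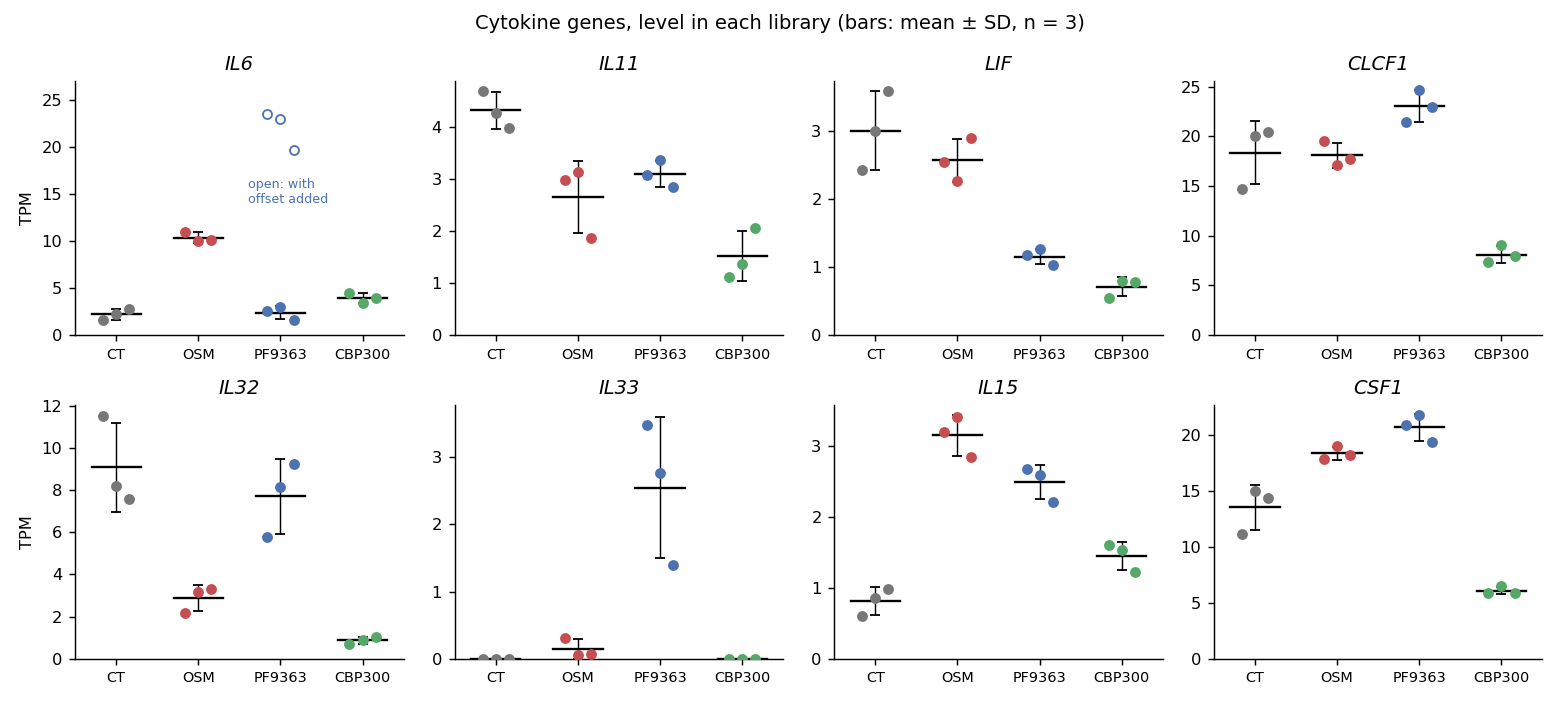
TPM of the 8 cytokine genes in each of the 12 libraries (points), with group mean and SD (bars, n = 3); open points are PF9363 values of IL6 with the offsets. All CBP300 libraries lie below all OSM libraries for IL6, LIF, CLCF1, IL32, IL15 and CSF1, and IL33 is near 0 outside PF9363. The share of all genes tested that separate in this way was not counted.

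The first comparison asked how the cytokine genes differed after OSM. With OSM, IL6, IL15 and CSF1 were higher than in CT, and IL32 and IL11 were lower. LIF, CLCF1 and IL33 did not pass the test. Of all genes tested, 42.1% were called higher and 15.2% lower, at an adjusted p under 0.05, so 3 of 8 members higher and 2 of 8 lower stand near that background. The median log2 change was 0.31 over all genes tested and 0.09 over the 8 members.

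IL6, which drives the acute-phase response, was at 1.61, 2.24 and 2.80 TPM in CT and at 11.0, 10.0 and 10.1 TPM with OSM. All 3 OSM libraries lay above all CT libraries. Such separation is given here and below as description, since its share over all genes tested was not counted. The log2 change, on the log2(TPM + 1) scale used throughout, was 1.84 (SE 0.18, limma adjusted p = 8.15e-05).

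IL15, which sustains natural killer and memory T cells, was at 0.605, 0.861 and 0.985 TPM in CT and at 3.2, 3.42 and 2.85 TPM with OSM, again without overlap. Its log2 change was 1.2 (SE 0.13, limma adjusted p = 0.000153). When a trend on GC content and transcript length was removed in each library, this change fell to 0.01 (adjusted p = 0.983). IL15 has a GC content of 38.7%, against 59.5% for CSF1.

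CSF1 was at 11.2, 15.0 and 14.4 TPM in CT and at 17.9, 19.0 and 18.2 TPM with OSM. The groups did not overlap, but the log2 change of 0.42 (SE 0.11, limma adjusted p = 0.00947) was close to the median change of all genes. With median-of-ratios scaling, which brings that median to 0, the change was 0.05 and the call was lost (adjusted p = 0.589).

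IL32 was at 11.5, 8.17 and 7.59 TPM in CT and at 2.16, 3.18 and 3.30 TPM with OSM. Every OSM library was below every CT library, and the log2 change was -1.37 (SE 0.20, limma adjusted p = 0.000935). IL32 was lower under every scaling tried.

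IL11, a gp130 ligand linked to fibrosis and platelet production, was at 4.69, 4.26 and 3.98 TPM in CT and at 2.97, 3.12 and 1.86 TPM with OSM. The groups did not overlap, and the log2 change was -0.56 (SE 0.17, limma adjusted p = 0.0194). Over the 12 fits that each left out a single library, the adjusted p reached 0.0749 and the call was lost in 2, without CT replicate 1 and without OSM replicate 3.

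LIF, which maintains stem cells and takes part in implantation, was at 2.42, 3.0 and 3.58 TPM in CT and at 2.54, 2.26 and 2.90 TPM with OSM. These ranges overlapped, and the log2 change was -0.16 (95% interval -0.47 to 0.15). With median-of-ratios scaling it was -0.45 and passed the test (adjusted p = 0.00963). It also passed with the GC and length trend removed (-0.4, adjusted p = 0.016) and with limma-voom (-0.47, adjusted p = 0.0316).

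CLCF1 was at 14.7, 20.0 and 20.4 TPM in CT and at 19.5, 17.1 and 17.7 TPM with OSM, also with overlap. Its log2 change was -0.01 (95% interval -0.30 to 0.29), against -0.38 with median-of-ratios scaling (adjusted p = 0.0119) and 0.20 with the GC and length trend removed.

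IL33 was at 0 in all 3 CT libraries and at 0.312, 0.0626 and 0.0664 TPM with OSM, from 8 reads in all. Over the CT libraries, 0 reads gave a 95% upper limit of 0.0614 TPM, counting error only. A floor of 3 reads over the group equals 0.0499 TPM. At this depth a difference of IL33 between OSM and CT rests on those 8 reads and did not pass the test (adjusted p = 0.445). It depended on the setting, as limma-voom called it higher (2.35, adjusted p = 0.0416) and removing the GC and length trend called it lower (-0.73, adjusted p = 0.0248), so no direction is given.

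The second comparison asked how the OSM-treated cells differed when PF9363 was present. IL32 and IL33 were higher than with OSM alone, and LIF was lower. IL11, CLCF1, IL15 and CSF1 did not pass the test. Of all genes tested, 11.3% were called higher and 35.6% lower. With the values as deposited 2 of 8 members were higher and 2 lower, and with IL6 left out 2 were higher and 1 lower. The median log2 change over all genes was -0.31, and with median-of-ratios scaling 3711 genes were higher and 3773 lower, against 1901 and 5993 as deposited.

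IL32 was at 5.76, 8.14 and 9.23 TPM with PF9363, above all OSM libraries and overlapping the CT range of 7.59 to 11.5 TPM. Its log2 change against OSM was 1.16 (SE 0.20, limma adjusted p = 0.000783). Against CT the change was -0.22 (95% interval -0.66 to 0.23), and with the GC and length trend removed it was 0.37 (adjusted p = 0.0402).

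IL33 was at 3.47, 2.76 and 1.40 TPM with PF9363, from 55, 44 and 24 reads. All 3 libraries were above all others in the series. Summed over libraries, 123 reads with PF9363 against 8 with OSM gave a ratio of 15.8 (95% exact interval 7.76 to 37.4, counting error only). Of the 8 OSM reads 6 were in replicate 1, and without that library the ratio was 39.0 (interval 10.6 to 325), from 2 reads. No read was found in CT, and the PF9363 mean was 50.9 times the CT floor of 3 reads over the group. That ratio is not a lower bound. The PF9363 level had a 95% interval of 2.09 to 3.0 TPM, against the CT upper limit of 0.0614 TPM. The log2 change against OSM was 1.59 (SE 0.21, limma adjusted p = 0.000116) and ranged from 1.40 to 1.84 over the fits that left out a single library.

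LIF was at 1.17, 1.26 and 1.03 TPM with PF9363, below all OSM and CT libraries. Its log2 change against OSM was -0.73 (SE 0.14, limma adjusted p = 0.00155). Against CT it was -0.88 (adjusted p = 0.000375).

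CLCF1 was at 21.5, 24.7 and 23.0 TPM and CSF1 at 20.9, 21.8 and 19.4 TPM with PF9363. For both genes these libraries lay above all OSM libraries, yet the log2 changes of 0.33 and 0.16 missed the threshold (adjusted p = 0.063 and 0.26). With median-of-ratios scaling both passed, at 0.68 (adjusted p = 0.000453) and 0.51 (adjusted p = 0.000407). Both also passed with the GC and length trend removed, at 0.58 (adjusted p = 0.00265) and 0.51 (adjusted p = 6.09e-05). With limma-voom they passed at 0.44 (adjusted p = 0.0149) and 0.27 (adjusted p = 0.0382). In the fit of 2 groups CLCF1 passed too (adjusted p = 0.0348).

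IL11 stood at 3.07, 3.35 and 2.84 TPM with PF9363, overlapping OSM, with a log2 change of 0.18 (95% interval -0.21 to 0.56). With the GC and length trend removed it was 0.46 and called higher (adjusted p = 0.0458). IL15 was at 2.68, 2.59 and 2.22 TPM, below all OSM libraries, with a log2 change of -0.25 (95% interval -0.53 to 0.03) that became 0.02 with median-of-ratios scaling. IL15 remained above CT, by 0.95 on the log2 scale (adjusted p = 0.000129), but this was 0.19 (adjusted p = 0.456) with the GC and length trend removed.

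Against CT, 3 of 8 members (IL33, IL15 and CSF1) were higher with PF9363 and 1 (LIF) was lower, beside 27.9% and 28.4% of all genes. This comparison and the one against OSM share the PF9363 libraries. CLCF1, at 0.32, was not called, but passed with median-of-ratios scaling (0.3, adjusted p = 0.0319) and with the GC and length trend removed (0.78, adjusted p = 0.000303). IL11, at -0.38, was not called, but passed as lower with a pseudocount of 5 TPM (-0.2, adjusted p = 0.045) and with limma-voom (-0.62, adjusted p = 0.0261). IL6 was not called as deposited, at 0.06, so the counts against CT are the same without it. With the offsets IL6 was called higher, at 2.85 (limma adjusted p = 1.47e-07).

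Keratin 18, an epithelial marker that many cell types express, reached 512 to 3810 TPM over the series. The 5 epithelial markers, mostly keratin 18 by level, summed to 2690 to 3870 TPM with PF9363 against 769 to 837 TPM with OSM. The list went both ways, as of 3 markers tested 2 were higher and 1 lower with PF9363 than with OSM. Over all genes 11.3% were higher and 35.6% lower. KRT19 ran from 0.236 to 6.8 TPM over the series. EPCAM and CDH1, which define epithelium, stayed at or under 0.686 and 0.101 TPM. The leukocyte marker CD14 was higher with PF9363 than with OSM by 1.70 (adjusted p = 5.97e-06), and the endothelial marker EMCN averaged 0.543 TPM with PF9363 against 11.8 TPM with OSM (log2 change -3.06). Of the 10 endothelial markers tested, 2 were lower and 0 higher with PF9363 than with OSM, and 8 were not called. The lower calls were fewer than the 35.6% of all genes. The part of these differences in the IL32 and IL33 results was not tested.

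**Figure D3:**
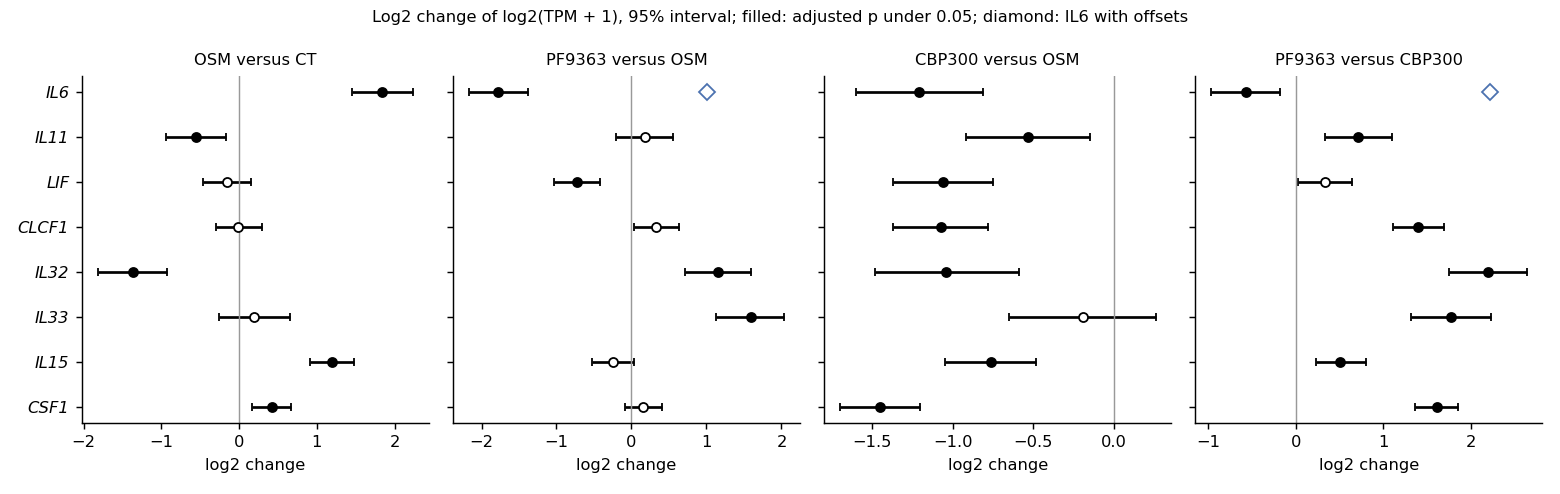
Difference of group means of log2(TPM + 1) for each member in 4 comparisons, with 95% intervals from the limma fit; filled points have an adjusted p under 0.05, and diamonds mark IL6 with the offsets, without an interval. In CBP300 versus OSM all 8 members lie below 0, with IL33 not called, and IL6 lies on opposite sides of 0 in both PF9363 comparisons depending on the values used.

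The third comparison asked how the OSM-treated cells differed when CBP300 was present. IL6, IL11, LIF, CLCF1, IL32, IL15 and CSF1 were all lower than with OSM alone, and IL33 was at 0 in every CBP300 library. The IL33 difference was not called (-0.19, adjusted p = 0.499), though limma-voom called it lower (-3.13, adjusted p = 0.0176). Lower calls made up 13.3% and higher calls 13.8% of all genes tested, against 7 and 0 of the 8 members. The median log2 change was -1.05 over the members and 0.11 over all genes. Without any single library, 6 or 7 members were called lower.

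CSF1 was at 5.92, 6.49 and 5.88 TPM with CBP300, below all OSM and all CT libraries. Its log2 change against OSM was -1.45 (SE 0.11, limma adjusted p = 1.45e-05). Against CT it was -1.03 (adjusted p = 4.37e-05).

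CLCF1 was at 7.33, 9.03 and 7.94 TPM with CBP300, less than every library of the other groups. The log2 change against OSM was -1.07 (SE 0.13, limma adjusted p = 0.00031), and against CT it was -1.08 (adjusted p = 7.55e-05).

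LIF was at 0.549, 0.800 and 0.782 TPM with CBP300, from 12, 60 and 11 reads, and was below every other library. Its log2 change against OSM was -1.06 (SE 0.14, limma adjusted p = 0.000448).

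IL32 was at 0.718, 0.885 and 1.03 TPM with CBP300, below OSM, which was itself below CT. The log2 change was -1.04 against OSM (SE 0.20, limma adjusted p = 0.00412) and -2.41 against CT (SE 0.20, adjusted p = 9.57e-06).

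IL6 was at 4.45, 3.44 and 3.99 TPM with CBP300. All 3 libraries lay below OSM and above CT. The log2 change was -1.21 against OSM (SE 0.18, limma adjusted p = 0.000914) and 0.64 against CT (adjusted p = 0.00808), and with median-of-ratios scaling the latter was 0.27 and not called (adjusted p = 0.0963). With the PF9363 offsets in the same fit the change against OSM was also -1.21.

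IL15 was at 1.6, 1.53 and 1.22 TPM with CBP300, also between CT and OSM. Against OSM the log2 change was -0.76 (SE 0.13, limma adjusted p = 0.00187). Against CT it was 0.43 (adjusted p = 0.0109) and turned to -1.29 (adjusted p = 0.000424) with the GC and length trend removed.

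IL11 was at 1.12, 1.37 and 2.06 TPM with CBP300, and its highest library lay above the lowest OSM library. The log2 change of -0.53 (SE 0.17, limma adjusted p = 0.0442) was not called in 8 of 12 fits that left out a single library, with adjusted p up to 0.152. Against CT it was -1.09 (adjusted p = 0.000285), with no overlap.

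Against CT, CBP300 had 2 of 8 members higher (IL6 and IL15) and 5 lower, beside 48.1% and 22.7% of all genes. With median-of-ratios scaling 6045 genes were higher and 5943 lower, against 8099 and 3825 as deposited, and no member was then called higher. The 10 endothelial markers summed to 653 to 688 TPM with CBP300 and to 1440 to 1490 TPM with OSM. Against OSM 7 of them were lower and none higher, beside 13.3% and 13.8% of all genes. The part of this in the cytokine results was not tested.

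The inhibitors were also set against each other, although they were given at different doses and share no dose range. With PF9363, IL11, CLCF1, IL32, IL33, IL15 and CSF1 were higher than with CBP300, 6 of 8 members against 14.5% of all genes, and LIF missed the threshold at 0.33 (95% interval 0.03 to 0.64, adjusted p = 0.0592). LIF was called higher under 4 alternatives, at 0.64 (adjusted p = 0.0295) with a pseudocount of 0.1 TPM, 0.55 (0.0028) with median-of-ratios scaling, 0.62 (0.00102) with the GC and length trend removed and 0.88 (0.00659) with limma-voom. The 1 member called lower as deposited was IL6, beside 45.1% of all genes, and it was 2.22 higher with the offsets. With median-of-ratios scaling 4398 genes were higher and 4706 lower, against 2450 and 7592 as deposited.

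The log2 differences between PF9363 and CBP300 were 2.20 for IL32 (SE 0.20, limma adjusted p = 8.55e-06), 1.61 for CSF1 (SE 0.11) and 1.40 for CLCF1 (SE 0.13). They were 0.71 for IL11 (SE 0.17, adjusted p = 0.005) and 0.51 for IL15 (SE 0.13, adjusted p = 0.00556). IL33 had 123 reads with PF9363 and none with CBP300, at least 79.0-fold higher over the floor of 3 reads over the group.

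The receptors for these ligands differed too. Of 12 receptor chains listed, 9 were tested, and 7 were higher and 1 lower with OSM, beside 42.1% and 15.2% of all genes. IL1RL1 and IL2RB were tested only because they reached 1 TPM with PF9363, so their differences there were partly set by the filter. OSMR, the OSM-specific chain, averaged 20.7 ± 5.98 TPM in CT and 141 ± 13.5 TPM with OSM (SD, n = 3), a log2 change of 2.75 (adjusted p = 3.7e-05). IL6ST, the shared gp130 chain, averaged 28.1 ± 20.2 and 197 ± 35.1 TPM, and LIFR 1.89 ± 1.19 and 6.13 ± 1.14 TPM. CT was low and scattered for IL6ST, and its log2 change of 3.10 ran from 2.33 to 3.64 over the fits that left out a single library. LIFR rose by 1.38 (adjusted p = 0.00832), which became -0.03 with the GC and length trend removed.

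IL6R averaged 5.58 ± 2.01 TPM in CT and 11.7 ± 1.17 TPM with OSM (log2 change 1.00, adjusted p = 0.00499). IL11RA fell, like its ligand, from 18.6 ± 1.99 to 11.8 ± 0.453 TPM (log2 change -0.61, adjusted p = 0.00904). IL15RA averaged 8.17 ± 0.295 TPM in CT and 18.6 ± 0.158 TPM with OSM, and IL1RAP 1.93 ± 1.04 and 14.3 ± 1.63 TPM. IL1RL1, the IL33 receptor chain, rose only to 0.511 ± 0.111 TPM, and this did not hold with the GC and length trend removed, where it was -0.32 (adjusted p = 0.249).

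With PF9363, 4 receptor chains were higher than with OSM alone and 1 was lower, beside 11.3% and 35.6% of all genes. IL15RA averaged 29.5 ± 3.12 TPM (log2 change 0.63, adjusted p = 0.000366). IL1RL1 averaged 1.23 ± 0.0658 TPM, with a log2 change of 0.56 that was called without a filter (adjusted p = 0.000186) and not with a pseudocount of 0.1 TPM (adjusted p = 0.0514). LIFR averaged 13.8 ± 5.99 TPM (0.97, adjusted p = 0.0457), a call lost in most fits that left out a single library (adjusted p up to 0.151). IL2RB, a chain of the IL15 receptor, averaged 2.35 ± 0.791 TPM and stayed at or under 0.655 TPM outside PF9363. IL11RA averaged 3.89 ± 1.04 TPM (-1.42, adjusted p = 4.44e-05).

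With CBP300, 1 receptor chain was higher than with OSM and 2 were lower, beside 13.8% and 13.3% of all genes. LIFR was higher, at 29.4 ± 2.40 TPM (log2 change 2.10, adjusted p = 0.00204). IL15RA and IL1RL1 were lower, at 9.91 ± 0.719 TPM (-0.85, adjusted p = 0.000186) and 0.0675 ± 0.0259 TPM (-0.50, adjusted p = 0.0107). OSMR stood at 201 ± 13.3 TPM and IL6ST at 265 ± 14.7 TPM, with every CBP300 library above every OSM library, but neither change passed the test in the main fit. In the limma fit of the 2 groups both were called higher, at 0.51 (adjusted p = 0.00128) and 0.44 (adjusted p = 0.0161). That fit called 6300 of all 16848 genes higher. With the GC and length trend removed IL6ST turned to -0.24 (adjusted p = 0.574). CSF1R, the receptor of CSF1 and also a leukocyte marker, stayed at or under 0.221 TPM in every library.

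**Figure D4:**
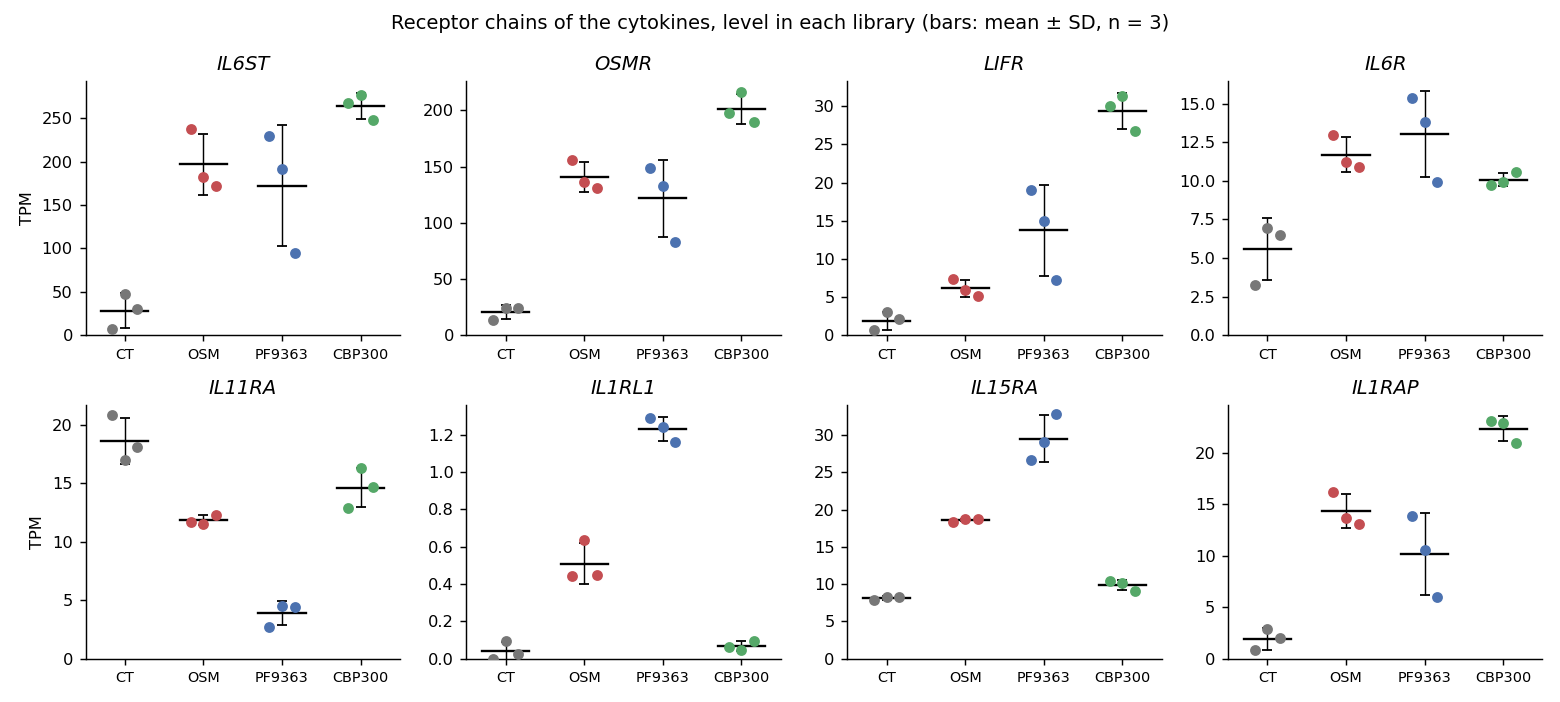
TPM of 8 receptor chains in each of the 12 libraries (points), with group mean and SD (bars, n = 3). OSMR and IL6ST are low in CT and high in the other groups, whereas IL15RA and IL1RL1 are highest with PF9363.

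Among 6 gp130-family ligands outside the members, 3 were tested. With OSM 1 was higher and 2 lower, beside 42.1% and 15.2% of all genes. CNTF, a ligand of the same family, averaged 0.625 ± 0.515 TPM in CT, 1.62 ± 0.344 TPM with OSM, 1.85 ± 0.174 TPM with PF9363 and 4.60 ± 0.657 TPM with CBP300. It rose with OSM by 0.73 (adjusted p = 0.0122), a call lost with the GC and length trend removed (0.44, adjusted p = 0.0569) and in the fit of the 2 groups (adjusted p = 0.0528), and was higher with CBP300 than with OSM by 1.1 (adjusted p = 0.00341). EBI3, a subunit of IL27, averaged 2.16 ± 0.234 TPM in CT, 0.992 ± 0.167 TPM with OSM, 3.21 ± 0.84 TPM with PF9363 and 0.423 ± 0.205 TPM with CBP300. It fell with OSM by 0.67 on the log2 scale (adjusted p = 0.0083), a call lost with the GC and length trend removed (-0.23, adjusted p = 0.156), and was higher with PF9363 than with OSM by 1.06 (adjusted p = 0.000507). Its difference between CBP300 and OSM missed the threshold (adjusted p = 0.0553). CTF1, a ligand that acts through LIFR and gp130, fell with OSM by 0.91 (adjusted p = 0.00251). With PF9363, 1 of the 3 was higher and none lower than with OSM, beside 11.3% and 35.6% of all genes. With CBP300 1 was higher and none lower, beside 13.8% and 13.3%.

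Of 18 other interleukins and colony-stimulating factors 4 were tested. With OSM 2 were higher and 1 lower, near the 42.1% and 15.2% of all genes. IL18BP, which neutralises IL18, averaged 4.94 ± 1.40 TPM in CT, 24.7 ± 0.81 TPM with OSM and 46.5 ± 5.35 TPM with PF9363. KITLG, the ligand of KIT, averaged 0.746 ± 0.56, 3.71 ± 0.423 and 9.64 ± 5.08 TPM in those groups. Both rose with OSM (log2 changes 2.14 and 1.48) and were higher again with PF9363 (0.88 and 1.03), but for KITLG the first change was 0.25 (adjusted p = 0.297) with the GC and length trend removed and the second was not called in most fits that left out a single library (adjusted p up to 0.129). IL18 fell with OSM by 0.83 but was tested only because it reached 1 TPM in CT; without a filter it was also called (adjusted p = 0.00593). With PF9363, 2 were higher and 1 lower than with OSM, beside 11.3% and 35.6% of all genes. The lower call was IL12A (-0.65, adjusted p = 0.0403), lost in 9 of 12 fits that left out a single library (adjusted p up to 0.108). With CBP300 KITLG was the 1 called higher and none was lower, beside 13.8% and 13.3% of all genes. The KITLG call (1.14, adjusted p = 0.0399) was lost in 7 of those 12 fits (adjusted p up to 0.117).

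All 11 listed regulators of cytokine transcription and transcript decay were tested, and 8 were higher and none lower with OSM, beside 42.1% and 15.2% of all genes. RC3H1, which destabilises transcripts, was among the 8 (1.01, adjusted p = 0.00332) but turned to -0.30 (adjusted p = 0.0242) with the GC and length trend removed. CEBPD, a C/EBP transcription factor, averaged 63.6 ± 3.66 TPM in CT and 416 ± 10.0 TPM with OSM (log2 change 2.69, adjusted p = 2.06e-07). It was lower than with OSM alone both with PF9363, at 221 ± 28.2 TPM (-0.92, adjusted p = 2.69e-05), and with CBP300, at 289 ± 14.1 TPM (-0.53, adjusted p = 0.00311), though the latter was -0.13 (adjusted p = 0.13) with the GC and length trend removed. With PF9363, 3 regulators were higher and 2 lower, and with CBP300 2 were higher and 1 lower, beside the shares of all genes given above. Higher with CBP300 were ZFP36, which drives transcript decay (0.83, adjusted p = 0.0278), and NFKBIZ, a cofactor of NF-kB (1.33, adjusted p = 0.0174). These calls were lost in 6 and 4 of the 12 fits that left out a single library, with adjusted p up to 0.0873 and 0.0631.

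Levels of the members differed in order as well as in size. In CT, CLCF1 was at 18.4 ± 3.17, CSF1 at 13.5 ± 2.02, IL32 at 9.10 ± 2.13, IL11 at 4.31 ± 0.358, LIF at 3.0 ± 0.578, IL6 at 2.22 ± 0.591 and IL15 at 0.817 ± 0.194 TPM (SD, n = 3). The ranges of CLCF1 and CSF1 overlapped in CT, as did those of CSF1 and IL32 and those of LIF and IL6. With OSM, CSF1 at 18.4 ± 0.587 TPM and CLCF1 at 18.1 ± 1.29 TPM led without differing beyond their spread, IL6 followed at 10.4 ± 0.554 TPM, and IL15, IL32, IL11 and LIF lay between 2.57 and 3.16 TPM on average with overlapping ranges.

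Other genes followed some members closely over the 12 libraries, by the root mean square difference of centred log2(TPM + 1) values. The nearest to CLCF1 was NPR1 at 0.10, against a spread of 0.55 for CLCF1 itself, and the nearest to CSF1 was NOTCH4 at 0.11, against 0.63. LIF was nearest to TSPAN15 (0.13 against 0.52), IL15 to ITPKC (0.13 against 0.47), IL33 to NEFM (0.15 against 0.77), IL11 to NECTIN4 (0.16 against 0.43) and IL32 to SNCG (0.18 against 0.99). For IL6 the nearest gene was GLT8D2 as deposited and IFITM1 with the offsets. With a pseudocount of 0.1 TPM the nearest gene changed for 7 of the 8 members, all but CSF1. These are descriptions over libraries that share groups.

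The members lie apart in the genome. On GRCh38 (GENCODE 29), IL6 spans chromosome 7 from 22725884 to 22732002, IL11 chromosome 19 from 55364389 to 55370463, LIF chromosome 22 from 30240447 to 30246851 and CLCF1 chromosome 11 from 67364168 to 67374177. IL32 spans chromosome 16 from 3065297 to 3082192, IL33 chromosome 9 from 6215786 to 6257983, IL15 chromosome 4 from 141636599 to 141733987 and CSF1 chromosome 1 from 109910242 to 109930992. All 8 are protein-coding. IL6 shares 428 exon bases with the antisense gene AC073072.1 and 46 with STEAP1B on the opposite strand, and LIF shares 175 with AC004264.1 and 92 with LIF-AS1. Since the strand setting of the counting is not given in the sources used here, reads in these bases cannot be assigned with certainty, while AC073072.1 ran at 0.454 to 2.227 TPM.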

How the data were processed

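Poly(A) RNA of HMEC-1 cells was sequenced as stranded paired-end libraries on an Illumina NovaSeq, per the labels' protocols. The authors deposited a table of TPM values for 12 libraries. The submitters' processing notes name Trimmomatic 0.40, Bowtie2, RSEM 1.3.3 and GRCh38, without giving their roles. TPM fixes each library's total, so a change in abundant genes moves all others.

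Values were tested as log2(TPM + 1) with limma 3.58.1 (R 4.3.3), with a mean-variance trend, over all 12 libraries and the 16848 genes with at least 1 TPM in 3 libraries. P-values were adjusted by Benjamini-Hochberg within each of 6 comparisons. The script was tested on simulated data. Whole reads were recovered for 99.97% of the tested genes from the steps of TPM, and limma-voom was run on them as an alternative. Intervals on reads cover counting error only. Members and lists were chosen with earlier results of these data known. A gene of the ligand list is not reported here. Genes named from a list were up to 4 with the largest changes among those called, plus 7 receptor chains always. IL2RB, IL11RA, the markers, and ICAM1, HIF1A, VEGFA and SNAI1, whose PF9363 values are not whole reads, were named after their values were seen. The likeness rule took the 2 nearest genes per member, of which the nearest is printed.

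Alternatives covered pseudocounts, filters, median-of-ratios scaling, a GC and length trend, a replicate block, fits of 2 groups and each library left out. Restored whole-read values for IL6, limma-voom, counts without IL6, and IL33 ratios without each OSM library were added after seeing the data.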

Additional observations from a re-analysis of the deposited data

How the results depend on the processing

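Depth limited IL33, LIF, IL11 and IL32 most, since single libraries held as few as 0, 11, 17 and 12 reads. Of 1011 repeated member values, 942 kept direction and side of the threshold, 28 gained a call, 25 lost one and 16 turned. The cause of these changes was not tested unless the setting's construction gives it.

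Adding the IL6 offsets turned IL6 to 1.01 (PF9363 versus OSM, adjusted p = 0.000247) and 2.22 (PF9363 versus CBP300), and limma-voom on whole reads, offsets included, gave 1.17 and 2.74. Members called lower were then 1 and 0 in these comparisons under both settings, and also with IL6 left out. Lower calls over all 16848 genes numbered 5989 and 7588 with the offsets and 5498 and 6346 with limma-voom.

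With the 5 TPM filter IL6, CLCF1, IL32 and CSF1 were left, so counts fell by construction: lower with OSM 1, PF9363 versus OSM 1 higher and 1 lower, CBP300 versus OSM 4 lower, PF9363 versus CT 1 higher and 0 lower, CBP300 versus CT 1 higher and 3 lower, PF9363 versus CBP300 3 higher. The lower call in PF9363 versus OSM was IL6 as deposited. Over the 11956 genes left the same calls numbered 2217, then 1338 and 4691, 1803, 3851 and 3768, 6568 and 3044, and 1747. With a pseudocount of 5 TPM 2 were lower in PF9363 versus CT, beside 4755 of all 16848 genes. With limma-voom 5 were higher in PF9363 versus OSM, among them IL6 with the offsets. With it 2 were lower in PF9363 versus CT and 1 higher in CBP300 versus CT. Over all 16848 genes these limma-voom calls numbered 2236, 5691 and 6567. CTF1 turned to -0.03 in CBP300 versus OSM with limma-voom.

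With median-of-ratios scaling 4 were lower with OSM, 4 higher in PF9363 versus OSM, 0 higher in CBP300 versus CT and 0 lower in PF9363 versus CBP300. The same calls over all 16848 genes moved too, from 2553, 1901, 8099 and 7592 in the main fit to 4694, 3711, 6045 and 4706. In PF9363 versus OSM it turned IL15 to 0.02, IL6ST to 0.09, OSMR to 0.11, NFKBIZ to 0.21, ZFP36 to 0.10 and RC3H1 to 0.15.

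With the GC and length trend removed 4 were lower with OSM, 5 higher in PF9363 versus OSM, 1 higher in CBP300 versus CT and 0 lower in PF9363 versus CBP300. The same calls numbered 4572, 4631, 5434 and 4665 over the 16729 genes of that setting. Values that turned were, for OSM versus CT, CLCF1 0.20, IL33 -0.73, LIFR -0.03, IL1RL1 -0.32, IL12A -0.11 and RC3H1 -0.30. For PF9363 versus OSM they were IL15 0.19, IL6ST 0.24, OSMR 0.18, NFKBIZ 0.27 and RC3H1 0.38. For CBP300 versus OSM they were IL6ST -0.24 and RC3H1 -0.20, and against CT they were IL32 0.37 with PF9363 and IL15 -1.29 with CBP300.

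Leaving out each library gave 1 to 2 members lower in OSM versus CT and 0 to 1 lower in PF9363 versus CBP300. Over all 16848 genes these calls ran from 1941 to 2700 and from 6453 to 8681. Log2 changes that turned ran from -0.15 to 0.07 for CLCF1 (OSM versus CT), -0.08 to 0.23 for IL6 (PF9363 versus CT, as deposited), -0.53 to 0.11 for IL6ST and -0.30 to 0.22 for NFKBIZ (PF9363 versus OSM), and 0.00 to 0.17 for CTF1 and -0.13 to 0.11 for IL18 (CBP300 versus OSM).

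Over all genes, CBP300 versus OSM moved most, from 2327 higher and 2238 lower to 6300 and 3770 in the fit of 2 groups and to 1090 to 4692 higher over the fits that left out a library. PF9363 versus OSM went from 1901 higher to 4631 and from 5993 lower to 4123 with the GC and length trend removed. PF9363 versus CT went from 4697 higher to 2659 in the fit of 2 groups. With the GC and length trend removed, OSM versus CT went from 7087 higher to 3948 and from 2553 lower to 4572; median-of-ratios scaling gave 4694 lower there and 5943 lower in CBP300 versus CT.

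The labels do not say whether replicate numbers pair the libraries. Same-number correlations of deviations from the group mean ran from -0.48 to 0.23. With 3 libraries per group these correlations cannot settle pairing. With the replicate block, members called lower in CBP300 versus OSM went from 7 to 6, as IL11 was no longer called (-0.53, adjusted p = 0.0775), and over all genes 1748 were higher and 1948 lower. The other member counts did not move under the block.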
